A study of Homo sapiens with 9 samples.

Results

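The 10 immediate early genes EGR1, FOS, FOSB, FOSL1, JUN, JUNB, JUND, IER2, IER3 and DUSP1 were followed on 9 exon arrays of Flip-In-293 cells, which are derived from HEK293, a line of human embryonic kidney cells. Their probe sets were those that the array's annotation assigns to exactly 1 of these symbols. This gave 107 of the 1384231 probe sets on the array, and 97 of the 107 had a mean signal at or above 6.97 (log2), the median of all probe set means. A gene level is the median log2 signal over a gene's probe sets above that line, with at least 3 required, and the probe set at the median can differ from array to array. All 10 genes had a gene level, among 16748 genes tested of 19426 with a named probe set. IER3 and DUSP1 are immediate early genes but do not encode transcription factors, so the set is called by its induction class.

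The arrays fell into 3 groups of 3. Cells had received a lentivirus with a short hairpin RNA against CPSF3, the endonuclease of pre-mRNA 3′ end cleavage, one against RBFOX2, an RNA-binding regulator of alternative exons, or a non-silencing hairpin (control). All were kept for 10 days after infection in medium with serum, and the labels name no starvation or stimulus and no hairpin sequence. The titles name the replicates biological but the series description says technical, so each p-value weighs a difference against array-to-array spread that may be purely technical. With 3 arrays against 3, an exact permutation test cannot go below p = 0.1, so calls rest on limma's moderated test across all genes, with Benjamini-Hochberg adjusted p under 0.05. Errors are SE of a difference or SD of a level (n = 3 each). Counts at an unadjusted p under 0.05 are given below without their share over all genes or probe sets, so they are descriptions.

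The targeted genes were looked at first. CPSF3 stood at 9.38 ± 0.19 on the arrays so labelled and at 9.47 ± 0.29 on the control arrays (difference -0.09 ± 0.16, adjusted p = 0.752, limma). The targeted transcript therefore does not bear out that label, and every direction drawn from these arrays rests on it. RBFOX2 stood at 8.94 ± 0.11 on the RBFOX2 knockdown arrays and at 9.53 ± 0.14 on the control arrays (-0.58 ± 0.12, adjusted p = 0.0617, limma). The median signal of an array lay between 6.97 and 6.998. All 8 HEK293 line genes had a gene level, but so did 9 of 9 fibroblast, 7 of 7 endothelial and 5 of 8 blood cell markers, so passing the signal filter does not tell cell types apart. In bulk RNA a change in the share of cells and a change in RNA per cell cannot be told apart.

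Immediate early genes are transcribed within a short time of a growth factor, serum or stress signal, without new protein synthesis, through factors already bound at their promoters. FOS and JUN family proteins pair through leucine zippers to form AP-1, which binds DNA at target genes; EGR1 is a zinc finger factor induced by the same signals. The transcripts are short-lived, many carrying AU-rich decay elements, and DUSP1, a phosphatase that inactivates MAP kinases, closes a feedback loop on the signal.

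The promoters of EGR1, FOS, JUN and JUND are shown, picked by the changes described below. EGR1 was the member with the highest change, which did not pass the test, and the other 3 were among the members that fell. Whether a motif bears on a change was not tested. RefSeq gave a promoter for 8 of the 10 genes (not for FOSL1 and IER3). Each window runs from 250 bases before to 50 bases after the gene's start, 5′ to 3′ on the gene's strand, on GRCh38.p14. The windows are chr5:138465229-138465528 (plus strand) for EGR1, chr14:75278578-75278877 (plus) for FOS, chr1:58783998-58784297 (minus) for JUN and chr19:18281573-18281872 (minus) for JUND. Capitals mark matches to the CArG box, to TGANNTCA, the letters of the cyclic AMP response element and related JUN dimer sites, to TGACG, its first part, or to TATAAA. The TGACG and TGANNTCA matches can overlap. The last motif was searched on the gene's strand only and the others on both strands.

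EGR1: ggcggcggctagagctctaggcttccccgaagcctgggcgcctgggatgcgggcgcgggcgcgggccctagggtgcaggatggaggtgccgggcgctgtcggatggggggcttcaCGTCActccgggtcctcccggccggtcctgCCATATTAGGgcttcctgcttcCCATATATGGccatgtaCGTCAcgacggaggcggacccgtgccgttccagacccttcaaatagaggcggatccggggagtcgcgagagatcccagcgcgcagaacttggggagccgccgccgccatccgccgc
FOS: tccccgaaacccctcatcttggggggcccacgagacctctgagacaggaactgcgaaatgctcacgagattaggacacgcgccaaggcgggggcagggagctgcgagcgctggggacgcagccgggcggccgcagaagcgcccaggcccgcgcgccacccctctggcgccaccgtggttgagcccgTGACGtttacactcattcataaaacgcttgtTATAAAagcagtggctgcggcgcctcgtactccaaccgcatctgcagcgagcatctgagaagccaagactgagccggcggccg
JUN: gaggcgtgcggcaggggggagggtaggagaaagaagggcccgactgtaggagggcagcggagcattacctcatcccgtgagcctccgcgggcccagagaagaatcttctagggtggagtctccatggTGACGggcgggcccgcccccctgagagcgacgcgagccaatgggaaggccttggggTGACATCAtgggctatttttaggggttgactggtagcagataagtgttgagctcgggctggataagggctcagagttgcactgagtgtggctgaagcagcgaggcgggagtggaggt
JUND: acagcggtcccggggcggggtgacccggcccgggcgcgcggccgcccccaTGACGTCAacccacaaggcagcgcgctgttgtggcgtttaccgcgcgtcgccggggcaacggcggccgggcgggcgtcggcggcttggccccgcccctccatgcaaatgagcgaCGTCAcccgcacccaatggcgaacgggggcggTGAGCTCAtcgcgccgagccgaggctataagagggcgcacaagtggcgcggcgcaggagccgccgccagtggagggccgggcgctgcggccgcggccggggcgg

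In these windows the EGR1 promoter held 2 CArG boxes, the motif that serum response factor binds, starting 105 and 83 bases before the gene's start. It was the only one of the 8 promoters with a match, against 1.29% of all 35116 RefSeq promoters. TGANNTCA was found in JUN, JUND and DUSP1, against 11.5% of all promoters, and TGACG in 8 of 8, against 24.6%. The AP-1 motif TGANTCA was in 0 of the 8, against 7.71%. TATAAA was found in FOS, FOSB, JUNB and DUSP1, against 7.33%. A match describes letters in a window and is not evidence of a bound site, and elements farther upstream lie outside these windows.

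Most of the set was lower on the arrays labelled CPSF3 knockdown than on the control arrays. JUN, JUNB, JUND, FOS, IER3 and DUSP1 fell, 6 of the 10 genes, and none rose; across all genes tested 4.38% were called lower and 10% higher. The falls lay between -1.01 and -0.54 on the log2 scale. EGR1 differed in the other direction without passing the test, and FOSB was lower without passing it. FOSL1 and IER2 stood near their control levels, though the IER2 difference depended on the summary. At 7 of the 10 genes all 3 arrays labelled CPSF3 knockdown lay below the control arrays, and at 1 all 3 lay above, against 13.2% and 17.9% of all genes. The median change of the 10 genes was -0.63, against 0.00872 for all genes tested.

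**Figure D1:**
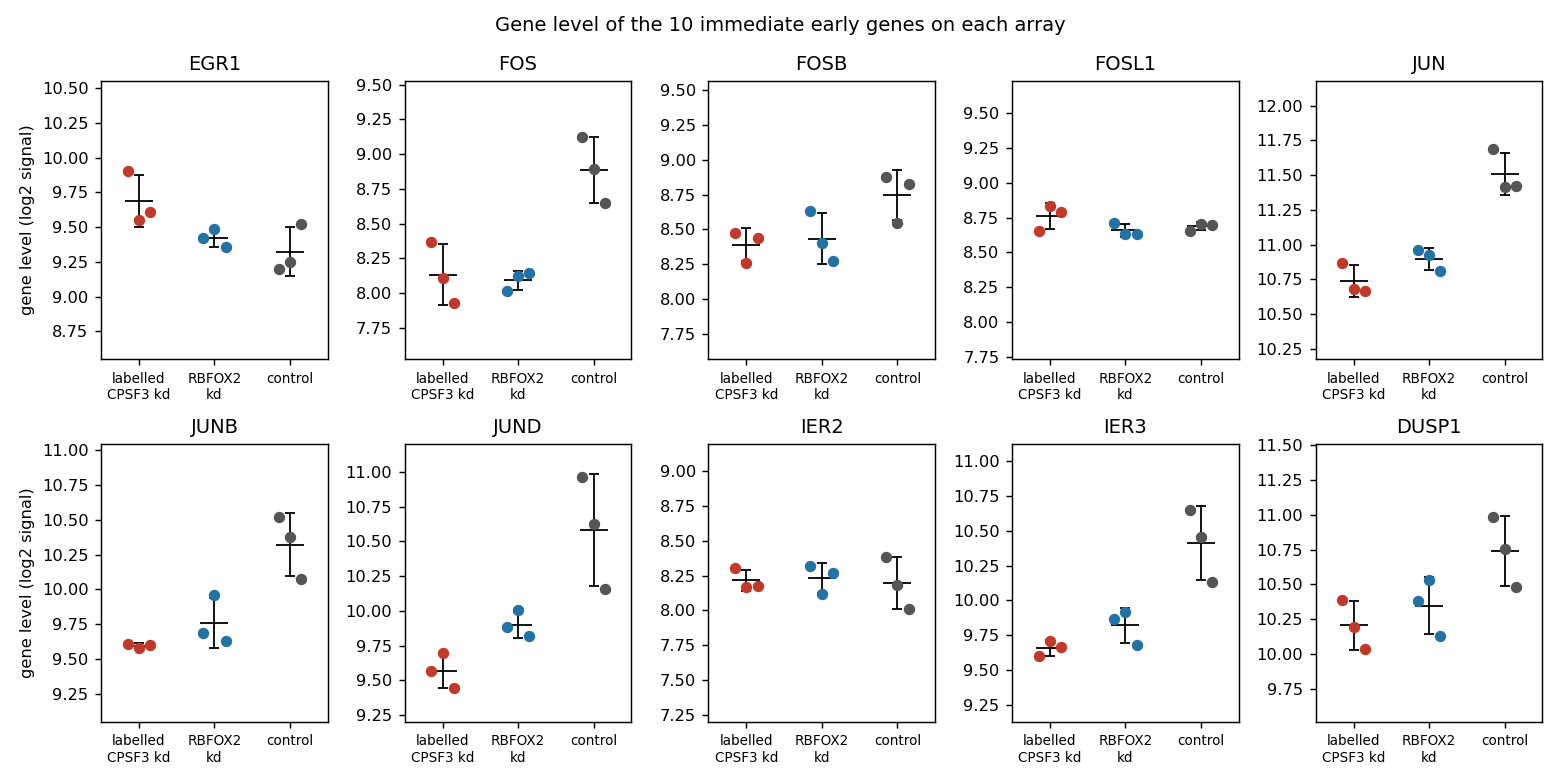
Gene level (log2 signal) of the 10 immediate early genes on each array, 1 panel per gene with its own axis range; points are arrays, bars the mean and SD of 3 arrays, with the arrays labelled CPSF3 knockdown at left, RBFOX2 knockdown in the middle and control at right. For JUN the 6 knockdown arrays lie between 10.67 and 10.96 and the control arrays between 11.42 and 11.69, while for EGR1 the arrays labelled CPSF3 knockdown lie above the control arrays.

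Among the JUN proteins, which can dimerise with each other as well as with FOS proteins, all 3 members fell. JUND, the member that is usually present in unstimulated cells, had gene levels of 9.57, 9.70 and 9.44 on the arrays labelled CPSF3 knockdown, against 10.96, 10.63 and 10.16 on the control arrays. The groups did not overlap, and the control arrays were spread over a wider range. The change was -1.01 ± 0.17 (adjusted p = 0.00307, limma), which is 2.02-fold lower, or 49.6% of the control level with a 95% interval from 38.7% to 63.6%. The level overstates most of its probe sets, whose median change was -0.70, and it was -0.71 with the mean as gene level and -0.76 with each probe set centred before the median. JUN, the founding AP-1 subunit, had 10.87, 10.68 and 10.67, against 11.69, 11.42 and 11.42 on the control arrays. Every JUN value of the arrays labelled CPSF3 knockdown lay below every control value, and the change was -0.77 ± 0.12 (adjusted p = 0.00215, limma). JUNB, a JUN protein that often restrains JUN's activity, had 9.61, 9.58 and 9.60, against 10.52, 10.38 and 10.07 on the control arrays. The 3 JUNB values of the arrays labelled CPSF3 knockdown differed by less than the control arrays did among themselves, and the change was -0.73 ± 0.13 (adjusted p = 0.00478, limma). Its 4 probe sets had a larger median change of -0.92. The JUNB change was -0.91 with the mean as gene level and -0.97 with centred probe sets, so the order of the JUN genes depends on the summary.

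The FOS proteins, which need a JUN partner to bind DNA, were not uniform. FOS had gene levels of 8.37, 8.10 and 7.93 on the arrays labelled CPSF3 knockdown, against 9.12, 8.89 and 8.64 on the control arrays. The groups did not overlap, and FOS fell by 0.75 ± 0.14 (adjusted p = 0.00543, limma). Its size depended on the probe sets used: with only the 4 brighter ones, above the upper quartile of signal, the change was -0.23 and the call was lost (adjusted p = 0.158). FOSB, a close paralogue also known for a truncated splice form, had 8.48, 8.26 and 8.44, against 8.88, 8.54 and 8.83 on the control arrays. All 3 lay below the control arrays, but the difference of -0.36 ± 0.13 missed the threshold (adjusted p = 0.0875, limma). FOSB was closer to control by other summaries, at -0.16 with the mean (adjusted p = 0.18), -0.16 with the stricter signal filter (adjusted p = 0.35) and -0.15 with centred probe sets (adjusted p = 0.244, limma). Its probe sets had a median change of -0.17, and 4 of the 13 had arrays wholly below control. The share of all probe sets with such arrays is not given here, so this count is a description. FOSL1, a FOS protein linked to sustained MAP kinase signalling, had 8.66, 8.84 and 8.79, against 8.66, 8.71 and 8.70 on the control arrays. The FOSL1 groups overlapped and differed by 0.07 ± 0.10 (adjusted p = 0.708, limma; 95% interval -0.15 to 0.30). Of its 11 probe sets, 3 have identifiers in a number block far from the other 8, and without them the difference was 0.07.

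EGR1 was the one gene of the set with a higher level on each array labelled CPSF3 knockdown than on any control array. Its levels were 9.90, 9.55 and 9.61 on the arrays labelled CPSF3 knockdown, against 9.20, 9.25 and 9.52 on the control arrays. The lowest value of the arrays labelled CPSF3 knockdown was just above the highest control value, that of control array 3. The median fell on different EGR1 probe sets on different arrays, so this separation is not one of a single probe set. Of its 15 probe sets 7 had arrays wholly above control, a count without its share over all probe sets. The difference of 0.36 ± 0.13 did not pass the threshold (adjusted p = 0.0739, limma). It did pass in 4 of 19 other settings, among them without control array 3 (0.46, adjusted p = 0.0213) and with the mean in place of the median as gene level (0.34, adjusted p = 0.0297), while with the stricter signal filter the difference was 0.23 (adjusted p = 0.21).

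The other members split in the same way. IER3, a short-lived membrane protein that modulates ERK signalling and cell survival, had gene levels of 9.60, 9.71 and 9.66 on the arrays labelled CPSF3 knockdown, against 10.65, 10.45 and 10.13 on the control arrays. The groups stood clear of each other, and IER3 fell by 0.75 ± 0.14 (adjusted p = 0.00435, limma). DUSP1 had 10.38, 10.19 and 10.04, against 10.99, 10.75 and 10.48 on the control arrays. The DUSP1 groups lay close to each other without overlapping, and the change was -0.54 ± 0.15 (adjusted p = 0.0307, limma). The DUSP1 call was lost without control array 1 (-0.41, adjusted p = 0.137), control array 2 (-0.53, adjusted p = 0.0775), array 2 labelled CPSF3 knockdown (-0.53, adjusted p = 0.0836) or array 3 with that label (-0.45, adjusted p = 0.111). Without the signal filter its adjusted p was 0.0543. IER2, a nuclear protein of the immediate early response, had 8.30, 8.17 and 8.18, against 8.39, 8.19 and 8.01 on the control arrays. The IER2 groups overlapped fully, with a difference of 0.02 ± 0.12 (adjusted p = 0.94, limma; 95% interval -0.24 to 0.28). By other summaries IER2 was lower without being called. The difference was -0.27 with the stricter signal filter (adjusted p = 0.213) and -0.17 with the mean (adjusted p = 0.245, limma).

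**Figure D2:**
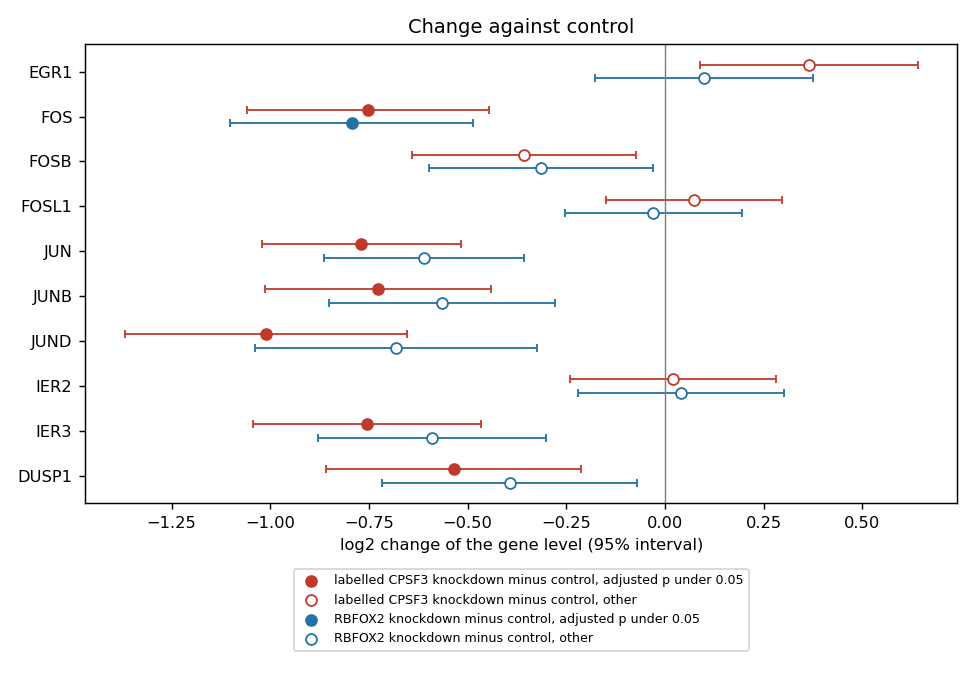
Change of each gene level against control (log2, x axis) with its 95% interval, for the arrays labelled CPSF3 knockdown (red) and the RBFOX2 knockdown arrays (blue); filled points passed an adjusted p of 0.05. The filled red points are JUND, JUN, IER3, FOS, JUNB and DUSP1, from -1.01 to -0.54, and FOS is the only filled blue point.

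Single probe sets show how evenly each transcript moved. Of the 97 probe sets above the signal line, 74 were lower on the arrays labelled CPSF3 knockdown than on the control arrays, 19 were called lower and none higher; over all probe sets tested 0.588% were called lower. The called ones belonged to JUN (5 of 16), JUND (5 of 9), JUNB (3 of 4), IER3 (3 of 6) and DUSP1 (3 of 9). The lowest was JUNB probe set 3821896, with signals of 10.89, 11.11 and 11.20 on the arrays labelled CPSF3 knockdown, against 12.65, 12.57 and 12.01 on the control arrays. Its groups did not overlap, and its change was -1.34 ± 0.19 (adjusted p = 0.0156, limma). JUND probe set 3854886 changed by -1.21 ± 0.24 (adjusted p = 0.0344, limma), and IER3 probe set 2948633 by -1.11 ± 0.18 (adjusted p = 0.0231, limma). In JUND 2 of the 9 probe sets, 3854884 and 3854887, stood apart at -0.08 and -0.21, while the other 7 lay between -1.21 and -0.67. No FOS probe set was called alone, although all 8 were lower, from -0.85 to -0.12. The count of 19 called probe sets was not stable. It was 0 without the signal filter, without control array 1 or 2, and without array 1, 2 or 3 labelled CPSF3 knockdown. It was 7 with only the compared groups and 34 without control array 3.

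DUSP1 is a gene whose level understates its probe sets. All 9 DUSP1 probe sets had arrays labelled CPSF3 knockdown wholly below the control arrays, with changes from -1.07 to -0.54 and a median of -0.91. This count too describes the gene only, without the share over all probe sets. The gene level falls on probe set 2887321, the one with the change nearest to 0. With each probe set centred before the median was taken, a setting added after seeing this, DUSP1 changed by -0.96 (adjusted p = 0.0048, limma). EGR1 was less even: 0 of its 15 probe sets were lower than control, but the changes ran from 0.009 to 0.92, 7 had an unadjusted p under 0.05, and none was called. FOSB had 10 of 13 probe sets lower, from -0.56 to 0.31, and FOSL1 6 of 10, from -0.14 to 0.17. IER2 had 6 of 7 lower, from -0.58 to 0.02, and its gene level fell on the single one above 0.

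**Figure D3:**
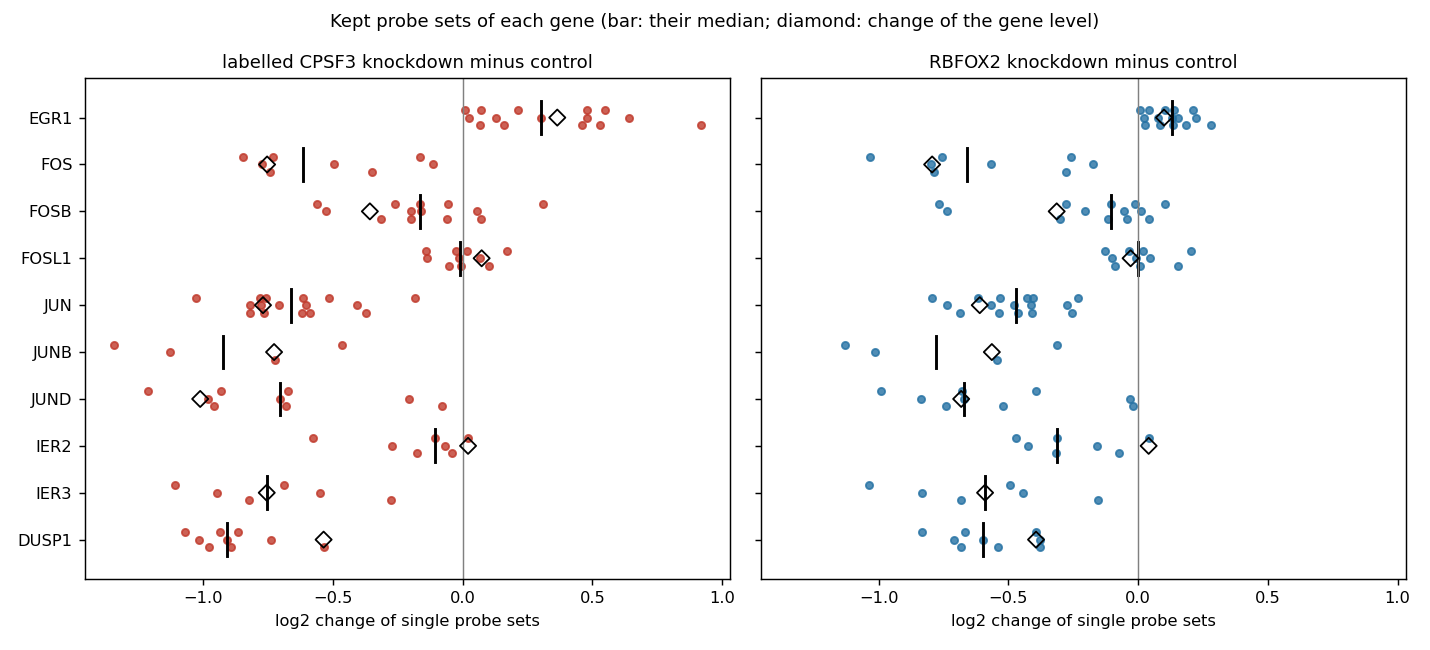
Log2 change of each of the 97 probe sets above the signal line, by gene, for the arrays labelled CPSF3 knockdown minus control (left) and RBFOX2 knockdown minus control (right); points are probe sets, the bar their median and the diamond the change of the gene level. In the left panel all 9 DUSP1 points lie between -1.07 and -0.54, with the diamond at the upper end, and all 15 EGR1 points lie above 0.

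On the RBFOX2 knockdown arrays 1 gene of the set fell. FOS was the only one of the 10 genes called, at -0.79 ± 0.14 (adjusted p = 0.048, limma), where 0.143% of all genes tested were called lower. FOS had gene levels of 8.01, 8.12 and 8.14 on the RBFOX2 knockdown arrays, all below the control values given above. This call did not hold in 13 of 19 other settings, among them the stricter signal filter (-0.27, adjusted p = 0.265). It was lost without any 1 of control array 1 (-0.68), control array 2 (-0.79), RBFOX2 knockdown array 1 (-0.75), 2 (-0.81) or 3 (-0.82), and without array 2 or 3 labelled CPSF3 knockdown (both -0.79).

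The JUN genes and IER3 were lower without being called in the main setting. Of 19 other settings, JUN was called in 4, JUNB in 3, and JUND and IER3 in 2 each. For JUNB these include the mean as gene level (-0.75, adjusted p = 0.0474, limma). JUN had 10.96, 10.92 and 10.81 on the RBFOX2 knockdown arrays (-0.61 ± 0.12, adjusted p = 0.0588, limma). JUND had 9.88, 10.00 and 9.82 (-0.68 ± 0.17, adjusted p = 0.116, limma). These arrays lay wholly below the control arrays for both genes. JUNB had 9.69, 9.96 and 9.63 (-0.56 ± 0.13, adjusted p = 0.111, limma), and IER3 had 9.87, 9.92 and 9.68 (-0.59 ± 0.14, adjusted p = 0.108, limma). With FOS, 5 of the 10 genes had RBFOX2 knockdown arrays wholly below the control arrays, against 7.05% of all genes tested. DUSP1 had 10.38, 10.53 and 10.13, with 1 array above the lowest control array (-0.39 ± 0.15, adjusted p = 0.264, limma), and its change was -0.63 with centred probe sets (adjusted p = 0.161). FOSB differed by -0.31 ± 0.13, EGR1 by 0.10 ± 0.13, IER2 by 0.04 ± 0.12 and FOSL1 by -0.03 ± 0.10, with adjusted p between 0.302 and 0.945 (limma). The FOSB difference was -0.19 with the mean, -0.17 with the stricter filter and -0.15 with centred probe sets, and the median over its probe sets was -0.10. The IER2 level again fell on its single probe set above 0. Of the 7 IER2 probe sets 6 were lower, and their median change was -0.31. At an unadjusted p under 0.05, 7 of the 10 genes differed from control, all lower. The median change of the set was -0.48, against 0.0254 for all genes tested. Of the 97 probe sets 73 were lower than control and none was called, against 0.000289% of all probe sets called lower, while 42 were lower at an unadjusted p under 0.05.

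Both comparisons use the same 3 control arrays, so an array of that group that stands apart moves them together. Averaged over the 6 genes called on the arrays labelled CPSF3 knockdown, the gene level was 9.73, 9.66 and 9.56 on those arrays, 9.80, 9.91 and 9.70 on the RBFOX2 knockdown arrays and 10.65, 10.42 and 10.15 on control arrays 1, 2 and 3. Control array 1 was the highest control for all 6 genes, and control array 3 the lowest for 5 of them. Without control array 3, the RBFOX2 knockdown arrays had 6 of the 10 genes called lower: FOS (-0.91), JUND (-0.89), IER3 (-0.73), JUNB (-0.69), JUN (-0.65) and DUSP1 (-0.52). In that setting 369 of the 16748 genes tested were called lower and 1177 higher, against 24 and 5 with all 9 arrays. Without control array 1 or control array 2 the FOS call was lost, as given above. For the arrays labelled CPSF3 knockdown, 5 to 7 genes were called when any 1 array was left out. What set the control arrays apart was not tested.

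**Figure D4:**
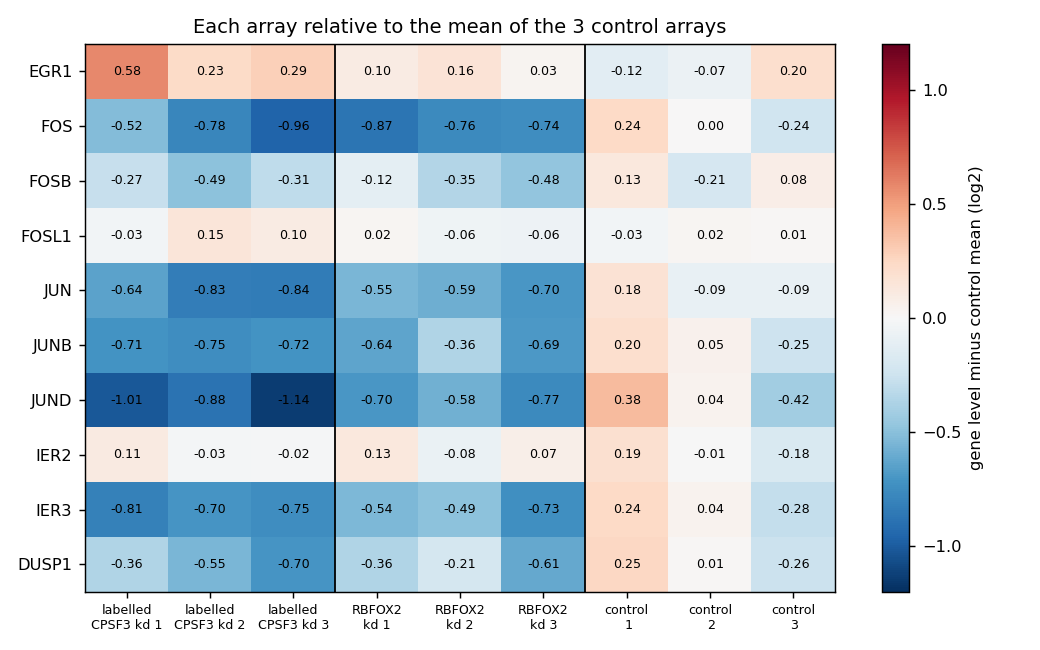
Gene level of each gene (rows) on each array (columns) minus the mean of the 3 control arrays (log2); blue is lower and red higher, with the arrays labelled CPSF3 knockdown at left, RBFOX2 knockdown in the middle and control at right. JUND, FOS, JUN, JUNB, IER3 and DUSP1 are blue on all 6 knockdown arrays, control array 1 is red for these genes and control array 3 pale blue.

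Set directly against each other, the targeted groups gave no call among the 10 genes and none at an unadjusted p under 0.05, where 0.4% of all genes tested were called in either direction (limma). The widest differences of the arrays labelled CPSF3 knockdown from the RBFOX2 knockdown arrays were -0.33 ± 0.17 for JUND (adjusted p = 0.424; 95% interval -0.69 to 0.03) and 0.27 ± 0.13 for EGR1 (adjusted p = 0.394; 95% interval -0.01 to 0.54). The arrays of these 2 groups did not overlap for JUND, JUNB and EGR1. The share of all genes with such arrays is not given here, so this separation is a description. FOS differed by 0.04 ± 0.14, with a 95% interval from -0.27 to 0.35. These intervals leave room for differences of that size, and the missed threshold does not show equal levels.

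The 6 called genes also varied together from array to array within the groups. After each group's mean was removed, the deviations on the 9 arrays had Pearson correlations between 0.51 and 0.93 over the 15 pairs of these genes, with a median of 0.77. EGR1 correlated with the same 6 genes between -0.59 and 0.16, with a median of -0.19. IER2, which was not called, correlated with them between 0.37 and 0.72, so the pattern was not limited to called genes. FOSB and FOSL1, also not called, correlated with them between -0.04 and 0.66 and between -0.69 and 0.05. Such correlations of other gene pairs are not given here. Averaged over the 6 genes, deviations ran from -0.26 to 0.25 on the control arrays. They ran from -0.09 to 0.08 on the arrays labelled CPSF3 knockdown and from -0.10 to 0.11 on the RBFOX2 knockdown arrays. These values describe 9 arrays that share normalisation and, within an array, 1 RNA sample. Across all 16748 genes, the gene levels most like JUND's over the 9 arrays were those of AKAP17A (r = 0.985) and EEF1A2 (r = 0.984), ahead of its nearest fellow member, IER3 (r = 0.981). For FOS they were the histone gene H2BC11 (r = 0.987) and the nuclear receptor gene NR4A2 (r = 0.981), for JUN MICB (r = 0.98) and IL12A (r = 0.979), and for IER3 PPP1R15A (r = 0.991) and KLF10 (r = 0.988). NR4A2, PPP1R15A and KLF10 are immediate early genes themselves. The group differences enter these correlations, so genes chosen this way had to be lower where the members were, and the changes of the 8 genes on the arrays labelled CPSF3 knockdown, from -1.07 for PPP1R15A to -0.45 for EEF1A2, are a description.

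Other genes of the pathway were read from lists by role, as counts. List counts with an array left out stand beside all genes called there, arrays labelled CPSF3 knockdown against control. Of 16748 genes these were 2409 with all 9 arrays, 1082 without control array 1 and 1205 without control array 2. They were 965, 1466 and 1665 without array 1, 2 or 3 labelled CPSF3 knockdown, and 2079 without RBFOX2 knockdown array 2. Of 38 measured other immediate early genes, 12 fell on the arrays labelled CPSF3 knockdown and none rose, with a median of -0.20, where 4.38% of all genes were called lower and 10% higher. ATF3, a stress-induced factor that can pair with JUN proteins, changed by -1.63 ± 0.26 (adjusted p = 0.00274, limma), and RHOB, a small GTPase of the endosome and cytoskeleton, by -1.16 ± 0.18 (adjusted p = 0.00239, limma). Relatives of EGR1 were not called: EGR2 stood at -0.03 ± 0.13 and EGR3 at -0.25 ± 0.11. The count was 6 without control array 1 and 7 without array 2 or array 3 labelled CPSF3 knockdown. On the RBFOX2 knockdown arrays none of the 38 was called and 16 had an unadjusted p under 0.05 (limma). Without control array 3, 12 were called, where 1546 of all 16748 genes were.

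All called target genes of AP-1 and EGR1 were lower. Of 20 measured target genes, 6 fell on the arrays labelled CPSF3 knockdown and none rose, against 4.38% of all genes lower and 10% higher, with a median of -0.27. LOX, the collagen-crosslinking lysyl oxidase, had -1.38 ± 0.16 (adjusted p = 0.000546, limma) and PDGFA, a growth factor chain, -0.89 ± 0.14 (adjusted p = 0.00227, limma). Without control array 1 the count was 4, where 306 of all genes were called lower. With the mean as gene level the count was 11, where 1150 of all genes were called lower, against 734 in the main setting. LOX was the one target called on the RBFOX2 knockdown arrays (-0.89 ± 0.16, adjusted p = 0.0465, limma), a call lost in 10 of 19 settings, with adjusted p up to 0.266 and changes from -1.14 to -0.73. Those settings include leaving out control array 1 or 2, RBFOX2 knockdown array 1 or 3, or any array labelled CPSF3 knockdown. None of the 17 measured dimer partners of AP-1 outside the set, such as the ATF, BATF and MAF genes, was called in either comparison. At an unadjusted p under 0.05, 4 of them differed between the arrays labelled CPSF3 knockdown and control, and 1 between RBFOX2 knockdown and control (limma).

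**Figure D5:**
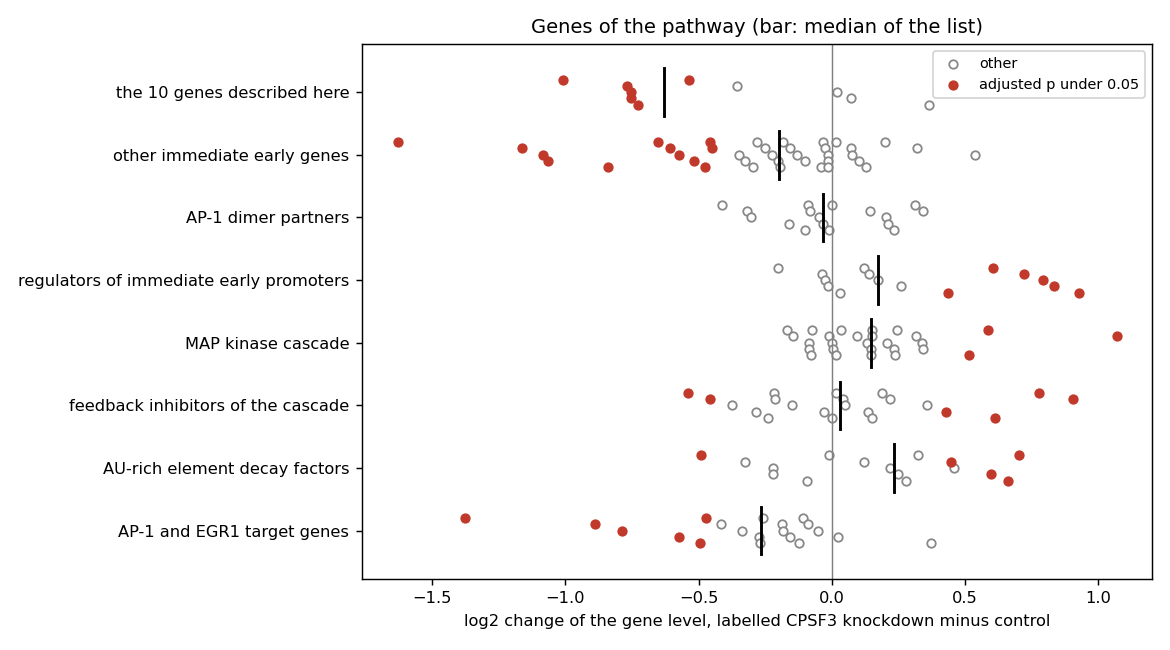
Log2 change of the gene level, arrays labelled CPSF3 knockdown minus control (x axis), for the 10 immediate early genes and 7 lists of other pathway genes (rows); red points passed an adjusted p of 0.05, and the bar is each list's median. Called genes lie left of 0 among the 10 genes (6), other immediate early genes (12) and target genes (6), and right of 0 among promoter regulators (6) and MAP kinase cascade genes (3).

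The called genes among the factors that act on these promoters were all higher. Of 15 measured regulators of immediate early promoters, 6 rose on the arrays labelled CPSF3 knockdown and none fell, with a median of 0.17. Over all genes more were called higher (10%) than lower (4.38%). CREB1, which binds the cyclic AMP response element, changed by 0.93 ± 0.17 (adjusted p = 0.00423, limma), and EP300, a histone acetyltransferase recruited by CREB1 and other factors, by 0.83 ± 0.16 (adjusted p = 0.0054, limma). SRF, which binds the CArG box, stood at -0.04 ± 0.16 (adjusted p = 0.914, limma). The count was 3 without control array 1, and 4 without control array 2 or any 1 of the arrays labelled CPSF3 knockdown or RBFOX2 knockdown array 2. None of the 15 was called on the RBFOX2 knockdown arrays, where 8 had an unadjusted p under 0.05 (limma). Without control array 3, 5 were called, where 1546 of all 16748 genes were, 1177 of them higher.

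In the MAP kinase cascade, which carries growth factor signals to these promoters, 3 of 27 measured genes rose on the arrays labelled CPSF3 knockdown and none fell. This share of higher calls is near the 10% of all genes, so the count is no result about the cascade. SOS1, an exchange factor that activates RAS, changed by 1.07 ± 0.22 (adjusted p = 0.00718, limma) and its paralogue SOS2 by 0.59 ± 0.17 (adjusted p = 0.0319, limma). The SOS2 call was lost in 7 settings, with adjusted p up to 0.13. The cascade count was 1 without control array 1 or 2 or array 1 or 3 labelled CPSF3 knockdown. It was 6 without control array 3, where 3429 of all 16748 genes were called. Of 22 measured feedback inhibitors, 4 rose and 2 fell, where 10% of all genes were called higher and 4.38% lower. SPRED1 and SPRED2, inhibitors of RAF activation, changed by 0.91 ± 0.17 and 0.78 ± 0.18 (adjusted p = 0.00551 and 0.0122, limma). DUSP10, a phosphatase for stress-activated kinases, and SPRY3, a Sprouty protein, changed by -0.54 ± 0.14 and -0.46 ± 0.12 (adjusted p = 0.0234 and 0.02, limma). The calls of SPRED2, DUSP10 and SPRY3 were lost in 2, 5 and 3 settings. The inhibitor count was 2 without control array 1 or 2, and 3 without array 1 or 2 labelled CPSF3 knockdown. No gene of the cascade or of its inhibitors was called on the RBFOX2 knockdown arrays, where 6 and 3 had an unadjusted p under 0.05 (limma).

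Among 16 measured factors that decay or bind AU-rich transcripts, 4 rose and 1 fell on the arrays labelled CPSF3 knockdown, against 10% and 4.38% of all genes. The single fall is near the share over all genes. CNOT7 and PARN, which shorten poly(A) tails, changed by 0.70 ± 0.16 and 0.66 ± 0.14 (adjusted p = 0.0133 and 0.00929, limma). ZFP36, which binds AU-rich elements and is itself an immediate early gene, changed by -0.49 ± 0.13 (adjusted p = 0.0215, limma). The ZFP36 call was lost without control array 1, control array 2, or array 1 or 2 labelled CPSF3 knockdown, and the CNOT7 call without control array 1 or array 3 with that label. The count was 2 without control array 2 or array 1 labelled CPSF3 knockdown, 3 without control array 1 or array 2 with that label, and none was called on the RBFOX2 knockdown arrays, where 6 had an unadjusted p under 0.05 (limma).

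Genes typical of the cell line also differed. On the arrays labelled CPSF3 knockdown, 3 of the 8 HEK293 line genes fell and 1 rose, against 4.38% of all genes lower and 10% higher, and the single rise is near that share. VIM, the intermediate filament vimentin, changed by -1.05 ± 0.12 (adjusted p = 0.000546, limma), NEFL, a neurofilament, by -0.87 ± 0.12 (adjusted p = 0.00122, limma), and LIN28B, an RNA-binding inhibitor of let-7 processing, by 0.83 ± 0.16 (adjusted p = 0.00605, limma). Array means of the 8 genes ranged from 9.53 to 9.62 on the arrays labelled CPSF3 knockdown, from 9.64 to 9.68 on the RBFOX2 knockdown arrays and from 9.76 to 9.90 on the control arrays. Array means of the 9 fibroblast markers ranged from 7.85 to 8.10 on the arrays labelled CPSF3 knockdown, from 8.05 to 8.21 on the RBFOX2 knockdown arrays and from 7.86 to 8.01 on the control arrays. Those of the 7 endothelial markers ranged from 7.88 to 8.08 on the arrays labelled CPSF3 knockdown, from 8.06 to 8.16 on the RBFOX2 knockdown arrays and from 7.98 to 8.20 on the control arrays. Those of the 5 blood cell markers ranged from 8.24 to 8.48 on the arrays labelled CPSF3 knockdown, from 8.48 to 8.56 on the RBFOX2 knockdown arrays and from 8.28 to 8.61 on the control arrays. None of these fibroblast, endothelial and blood cell markers was called against control in either comparison, and 1 fibroblast and 1 endothelial marker had an unadjusted p under 0.05 in each (limma). A log2 signal of these arrays has no true zero, and the part of these genes in the changes of the set was not tested.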

How the data were processed

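RNA from 3 samples per group was read on Affymetrix Human Exon 1.0 ST arrays. The authors deposited 1 log2 signal per probe set and array, made with Affymetrix Power Tools and RMA on hg18, per the submitters' processing notes. The design text also names Affymetrix's exon array tool; no tool version was given in the sources used here. RMA gives every array a common distribution, so shifts of most transcripts at once are hidden, and it compresses changes of weak probe sets. The number of arrays limits the precision.

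The platform annotation gave 1 symbol for 354600 probe sets, several for 14898 and none for 1014733; 2950 symbols were updated through RefSeq. Gene levels are medians over probe sets with a mean of at least 6.97. They were tested with limma 3.58.1 in R 4.3.3 (lmFit, eBayes, all 3 groups in 1 fit, no block, 2-sided), adjusted over 16748 genes, or over 692116 probe sets. The fit was run on simulated data whose noise was drawn separately for each gene and array. That check does not cover deviations that many genes share on an array. The genes, the 11 other lists and the rules for naming were chosen with earlier results of these data known. Named were all 10 genes, both targets, up to 2 highest and 2 lowest called genes per list and comparison, the 2 genes most correlated with each of the 4 most changed members, and called probe sets. EGR2, EGR3 and SRF, and the probe sets 2887321, 3854884 and 3854887, were added after their values were seen. Promoter windows and motif matches came from RefSeq (GRCh38.p14). Tried alternatives were 2 other signal filters, the mean as gene level, quantile normalisation, array centring, leaving out each array, only the compared groups, a replicate block, a variance trend with robust fitting and array weights; centring probe sets, and FOSL1 without 3 probe sets, were added after seeing the data. No array was left out.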

Additional observations from a re-analysis of the deposited data

How the results depend on the processing

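With 19 alternatives, JUN, JUNB, JUND and IER3 were called lower on the arrays labelled CPSF3 knockdown in all 19, FOS in 18 and DUSP1 in 14. FOSB gained a call as lower in 1 and EGR1 a call as higher in 4. Leaving out 1 array at a time gave 965 to 3429 genes, 5 to 7 of the 10 genes and 0 to 34 of their probe sets for these arrays against control, 2 to 1546 genes, 0 to 6 of the 10 genes and 0 to 21 probe sets for RBFOX2 knockdown against control, and 14 to 145 genes between the targeted groups. The main counts were 2409 genes, 6 members and 19 probe sets, then 29, 1 and 0, then 67 genes.

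With array weights the counts were 4817 genes and 42 probe sets for the arrays labelled CPSF3 knockdown, 1513 genes and 7 of the 10 genes for RBFOX2 knockdown, and 601 genes between the targeted groups. Without the filter they were 0 probe sets, then 7 genes and 0 of the 10, then 18 genes. With only the compared groups they were 7 probe sets, then 5 genes and 0 of the 10, then 149 genes. Probe sets numbered 31 with the stricter filter and 30 with the variance trend. The mean as gene level gave 44 genes for RBFOX2 knockdown and 140 between the targeted groups. Centring arrays gave 19 genes and 0 of the 10 for RBFOX2 knockdown, and centring probe sets 0 of the 10.

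Whether the replicate numbers pair the arrays was not settled. Same-numbered deviations correlated between -0.14 and 0.33. The highest were 0.33 and 0.26, for arrays 1 and 2 labelled CPSF3 knockdown with control arrays 1 and 2. Arrays with different numbers were not compared, so these values cannot decide it. The replicate block gave 137 genes and 2 of the 10 (FOS and JUN) for RBFOX2 knockdown and 42 genes between the targeted groups; it changed no call of the 10 genes on the arrays labelled CPSF3 knockdown.

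Sign changes were limited to differences that passed the threshold in no setting. On the arrays labelled CPSF3 knockdown against control, IER2 was -0.274 with the stricter filter, -0.174 with the mean, -0.122 with array weights and -0.114 with centred probe sets, and ranged from -0.0698 to 0.116 with 1 array left out. FOSL1 was -0.0731 with the stricter filter, -0.00209 with the mean and -0.0114 with centred probe sets. For RBFOX2 knockdown against control, IER2 was -0.317, -0.245, -0.101 and -0.196 in the same 4 settings, with -0.0505 to 0.135 when 1 array was left out, and FOSL1 was 0.00671 with the mean. Between the targeted groups, FOSB was 0.0800 without the filter, 0.0104 with the stricter filter, 0.0307 with the mean and 0.00261 with centred probe sets, FOSL1 -0.0592 with the stricter filter and -0.00879 with the mean, IER2 0.0434, 0.0710 and 0.0813 with the stricter filter, the mean and centred probe sets, and FOS -0.0163 with array weights. With 1 array left out, the differences ranged from -0.124 to 0.0549 for FOSB, from -0.0794 to 0.0239 for IER2 and from -0.0761 to 0.144 for FOS. The cause of these moves was not tested.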
